A study of Mus musculus with 28 samples.

Results

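The long noncoding RNA genes described here were followed in hair follicle stem cells of mice with and without Alkbh5, a demethylase of N6-methyladenosine (m6A) in RNA. They are Malat1, Neat1, Gas5, Snhg1, Snhg9, Snhg12, H19, Meg3, Pvt1 and Trp53cor1, taken by gene symbol. All 10 were listed in each of the 3 RNA-seq tables, of 56691 gene entries for the bulge, 47243 for hair germ by SHERRY2 and 57010 for hair germ by SMART-seq. Each table held 2 Alkbh5 conditional knockout (cKO) mice and 2 wild-type (WT) mice at postnatal day 69. Cells were sorted from skin by flow cytometry, and total RNA went into SHERRY2 libraries (200 ng for bulge, 40 ng for hair germ) or SMART-seq libraries (40 ng, hair germ). The sorting markers, the driver of the knockout, the deleted part of Alkbh5 and the sex of the mice were not stated in the sources used. Nothing says more of the mice than genotype, age and a mouse number, so p-values measure the spread between these libraries. In bulk RNA, fewer cells of a type and less RNA per cell cannot be told apart.

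Long noncoding RNAs act as RNA. Malat1 and Neat1 stay in the nucleus, Malat1 in the splicing-factor bodies called nuclear speckles and Neat1 as the scaffold of the bodies called paraspeckles, and Malat1 is known to carry m6A. Gas5 and the Snhg genes carry small nucleolar RNAs (snoRNAs), guides of ribosomal RNA modification, in their introns. Their spliced exons are left over, and the spliced Gas5 RNA is known to be degraded by nonsense-mediated decay when it is translated. H19 and Meg3 are imprinted RNAs expressed from the maternal chromosome, abundant in the embryo and mostly off after birth. Pvt1 lies beside the oncogene Myc. Trp53cor1, also called lincRNA-p21, is a p53-induced RNA of the mouse that lies beside Cdkn1a, the gene of the cell-cycle inhibitor p21. The bulge is the long-lived stem cell reserve of the resting follicle, and the hair germ beneath it divides first when growth starts.

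Bulge libraries held 14676168 to 21187283 reads in genes, hair germ SMART-seq libraries 9001396 to 14416601, and hair germ SHERRY2 libraries 488648 to 2317407. Alkbh5 had 68 and 50 reads in cKO bulge, against 2095 and 1351 in WT bulge, and 17.7 and 6.90 CPM (counts per gene scaled to a common library depth) in cKO hair germ by SHERRY2, against 62.8 and 61.4 CPM in WT. By SMART-seq it had 84.8 and 105 CPM in the libraries labelled cKO and 132 and 95.3 CPM in those labelled WT. The SMART-seq groups overlapped for the targeted gene, so that dataset is given by its labels. Summed over 10 hair follicle stem cell markers (Krt15 and Cd34 among them), the level was 28312 and 32335 CPM in cKO bulge, against 34400 and 32791 CPM in WT bulge. Y-linked genes were read at 335 CPM in WT bulge mouse 2, at 107 CPM in cKO SHERRY2 mouse 1, and at 269 and 278 CPM in mouse 2 of either SMART-seq label. In each other library they were at or under 2.05 CPM. By these reads, sex was not balanced between genotypes in the bulge or in SHERRY2 hair germ. Bulge calls given below as lost without WT mouse 2 depend on the bulge library with Y-linked reads. The part of sex in them was not tested.

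Per length, Malat1, Neat1 and Gas5 were the most abundant of the 10 in the bulge. The FPKM values of the authors (reads per kilobase of exon, scaled to library depth) averaged 111 ± 57.1 in cKO and 66.5 ± 17.0 in WT for Malat1 (SD, n = 2 each, as for the following values). Neat1 averaged 81.7 ± 43.9 in cKO and 87.1 ± 23.4 in WT. Gas5 averaged 57.9 ± 4.62 in cKO and 73.0 ± 8.29 in WT. Over the 4 libraries the ranges of these 3 overlapped, and their order differed between libraries, with the highest Malat1 value, 151, in cKO mouse 1. Snhg1 averaged 22.6 ± 1.5 FPKM in cKO and 22.9 ± 8.10 in WT, and Snhg12 14.7 ± 0.283 in cKO and 12.7 ± 2.60 in WT. A wide step separated these 5 from the rest, which were all under 1 FPKM on average in either genotype. H19 averaged 0.81 FPKM in cKO and 0.205 in WT, Pvt1 0.54 and 0.235, Snhg9 0.235 and 0.795, and Trp53cor1 0.115 and 0, each with cKO first. Meg3 had 1 read in 1 WT library and none in the others, so nothing could be said of a change in it.

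**Figure D1:**
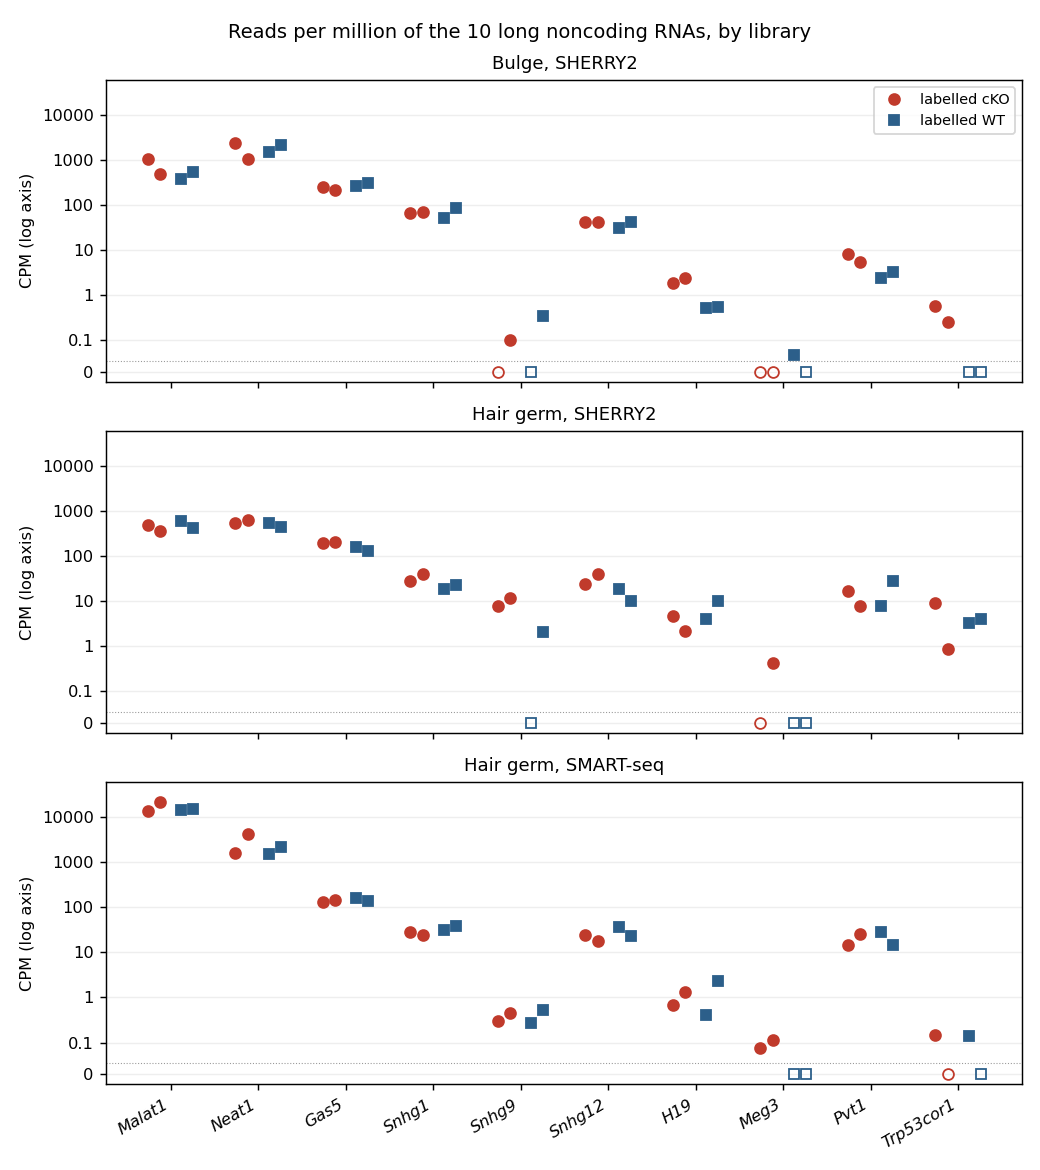
Level in CPM (log axis) of the 10 RNAs, with 1 panel per dataset and 1 point per library (labelled cKO circles, labelled WT squares; open symbols on the line marked 0 had no read). Malat1, Neat1, Gas5, Snhg1 and Snhg12 lay above 10 CPM in each of the 12 libraries, and Malat1 stood at 13575 to 21884 CPM by SMART-seq.

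The hair germ SHERRY2 libraries carried reads on nearly all genes, which sets how their low values can be read. Olfactory and vomeronasal receptor genes, which have no known use in skin, had reads in 1788 and 1726 of 1907 cases in cKO and in 1723 and 1609 in WT. In the bulge they had reads in 54 and 49 of 2002 cases in cKO and in 52 and 44 in WT. Over the 538 receptor genes with a known exonic length, the level per kilobase was 1.34 and 0.595 CPM in cKO hair germ by SHERRY2, against 0.905 and 2.18 CPM in WT. Pvt1 stood at 1.03 and 1.06 times this level in cKO and 0.709 and 1.06 times in WT. H19 stood at 1.30 and 1.38 times in cKO and 1.67 and 1.79 times in WT, and Trp53cor1 at 1.84 and 0.388 times in cKO and 0.979 and 0.504 times in WT. These 3 RNAs were thus at the level of silent genes in the SHERRY2 hair germ, and their values there are not read as expression or as a difference. Malat1, Neat1 and Gas5 were at 9.64 to 95.4 times it in the 4 libraries. Snhg1 stood at 6.99 and 22.4 times in cKO and 6.79 and 3.43 times in WT, and Snhg9 at 27.4 and 91.5 times in cKO and 0 and 4.39 times in WT. Snhg12 stood at 6.39 and 24.3 times in cKO and 7.23 and 1.66 times in WT, so that in WT mouse 2, with 5 reads, it was at the level of silent genes too.

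**Figure D2:**
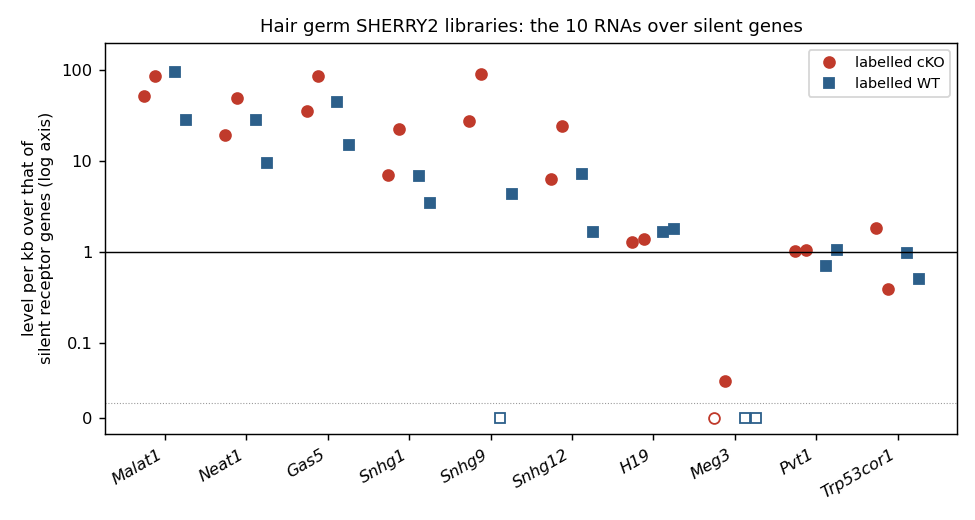
Level per kilobase of each RNA divided by the level per kilobase of silent olfactory and vomeronasal receptor genes in the same hair germ SHERRY2 library (log axis; labelled cKO circles, labelled WT squares; open symbols had no read). H19, Pvt1 and Trp53cor1 lie around the line at 1, between 0.388 and 1.84.

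Malat1 did not pass the test between genotypes in any dataset. In the bulge it had 997 and 463 TMM-scaled CPM in cKO mice, against 412 and 572 in WT mice (TMM scales libraries by their typical gene). One cKO library stood high and the other lay between the WT libraries. The log2 fold change was 0.57 ± 0.35 (SE; edgeR adjusted p = 0.435). It rested on single mice: without cKO mouse 2 it was 1.01 and passed (adjusted p = 0.0295), and without cKO mouse 1 it was -0.06 (adjusted p = 0.949). In the hair germ by SHERRY2, Malat1 had 543 and 681 normalized counts in cKO, against 892 and 330 in WT. Both cKO values lay between the WT values, with a log2 fold change of 0.16 ± 1.43 (limma adjusted p = 0.992). edgeR on the whole reads behind these values gave -0.21 ± 0.90 (adjusted p = 0.999). By SMART-seq it had 13325 and 21969 TMM-scaled CPM under the label cKO, against 14468 and 14717 under WT, with overlap (log2 0.27 ± 0.50, edgeR adjusted p = 1).

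The share of Malat1 in a library went with the method. It took 1.36 and 2.19% of the reads in the SMART-seq libraries labelled cKO and 1.41 and 1.49% in those labelled WT, and was the 4th most read gene in each of them (4 of 4 libraries). In SHERRY2 hair germ it took 0.0486 and 0.0360% in cKO and 0.0603 and 0.0428% in WT. Over the WT hair germ libraries, SMART-seq gave 28.1 times the SHERRY2 level, and only 4 of 10933 genes with at least 5 CPM in both had a larger ratio. The ratio was 3.74 for Neat1, 2.07 for Snhg12, 1.66 for Snhg1, 1.19 for Pvt1 and 0.992 for Gas5, where the median gene stood at -0.27 on the log2 scale. The mice, the batch and the counting also differ between the tables, so these cannot be told apart from the method, and no test was made across them.

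Neat1 also overlapped between genotypes on the scale of each test. It had 2250 and 1008 TMM-scaled CPM in cKO bulge, against 1615 and 2287 in WT bulge. The cKO values lay on both sides of the lower WT value, and the log2 fold change was -0.26 ± 0.37 (edgeR adjusted p = 0.765). In SHERRY2 hair germ it had 619 and 1183 normalized counts in cKO, against 808 and 343 in WT (log2 0.70 ± 1.54, limma adjusted p = 0.983). By SMART-seq it had 1551 and 4193 TMM-scaled CPM under the label cKO, against 1542 and 2177 under WT (log2 0.63 ± 0.54, edgeR adjusted p = 1). The high library there was labelled cKO mouse 2, which also had the highest Malat1; without it the change was -0.26. That library also had the most reads on immune cell and melanocyte markers, whose part in it was not tested. Of 10 paraspeckle proteins, the partners of Neat1, 0 rose and 0 fell in any dataset, and 0 had an unadjusted p under 0.05. Sfpq and Nono, the paired core proteins, had log2 fold changes of -0.01 and -0.10 in the bulge. The median of the 10 in the bulge was -0.01, as for all genes tested, while in SHERRY2 hair germ all 10 were positive with a median of 0.68. Of 10 nuclear speckle proteins, 0 rose and 0 fell in any dataset, with 2 at an unadjusted p under 0.05 in the bulge, where 18.9% of all genes were. The lowest p among them in the bulge belonged to Srrm2, a scaffold of the speckle, with 630 and 586 TMM-scaled CPM in cKO, against 446 and 388 in WT (log2 0.54, adjusted p = 0.138).

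The snoRNA hosts Gas5, Snhg1 and Snhg12, with the low Snhg9, are shown by their start. Genes of ribosomal proteins and snoRNA hosts typically begin with a run of C and T, the terminal oligopyrimidine tract, which ties the use of their RNA to growth signals. RefSeq start windows of GRCm38.p6 are shown for these hosts, and for Malat1 as a contrast, because the counts of the hosts are set beside those of ribosomal protein genes further on. Each window runs from 20 bases before the start to 20 bases from the start on, and capitals mark the longest run of C or T that touches the 10 bases on either side of the start. RefSeq has 2 starts for Gas5. The second is printed, and at the first the longest run is 3 bases.
Gas5: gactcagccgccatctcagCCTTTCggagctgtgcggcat
Snhg1: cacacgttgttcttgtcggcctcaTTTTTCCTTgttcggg
Snhg12: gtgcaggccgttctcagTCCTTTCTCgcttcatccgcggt
Snhg9: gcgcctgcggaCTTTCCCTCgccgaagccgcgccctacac
Malat1: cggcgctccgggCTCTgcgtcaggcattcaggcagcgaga
The windows lie at chr1:161035146-161035185 on the plus strand (Gas5), chr19:8723467-8723506 on the plus strand (Snhg1), chr4:132308658-132308697 on the plus strand (Snhg12), chr17:24719946-24719985 on the minus strand (Snhg9) and chr19:5802653-5802692 on the minus strand (Malat1). The run was 6 bases at the printed start of Gas5, 9 in Snhg1, Snhg12 and Snhg9, and 4 in Malat1. In Snhg12 and Gas5 it spans the annotated start, in Snhg9 it ends just before it, and in Snhg1 it begins at base 5. A run of at least 5 was found in 44.9% of 32851 RefSeq promoter entries, in 68.4% of 79 entries of ribosomal protein genes and in 60% of 20 entries of snoRNA hosts. Such a match describes letters and no measured start.

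Gas5 had the lowest p of the 7 members tested in the bulge, and it did not pass. It had 231 and 206 TMM-scaled CPM in cKO mice, against 290 and 329 in WT mice. Both cKO libraries lay below both WT libraries, as for 26.3% of all genes tested there. The log2 fold change was -0.50 ± 0.16 (edgeR adjusted p = 0.137), and it stayed between -0.60 and -0.42 when any 1 library was left out. In SHERRY2 hair germ Gas5 had 213 and 392 normalized counts in cKO, against 242 and 101 in WT, with overlap (log2 0.88 ± 0.96, limma adjusted p = 0.970). As plain CPM the same libraries read 191 and 207 in cKO, against 163 and 131 in WT. These do not overlap, as for 30.5% of all genes in plain CPM, so the separation depends on the scaling. By SMART-seq it had 125 and 146 TMM-scaled CPM under the label cKO, against 162 and 133 under WT (log2 -0.12 ± 0.21, edgeR adjusted p = 1). On the opposite strand Gas5 is overlapped by Zbtb37, which had 64.9 and 43.6 TMM-scaled CPM in cKO bulge, against 34.8 and 37.8 in WT (log2 0.58, edgeR adjusted p = 0.196). Without stated use of strand in counting, reads in the overlap cannot be told apart.

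Snhg1 and Snhg12 did not pass in any dataset either. In the bulge Snhg1 had 61.3 and 67.1 TMM-scaled CPM in cKO, against 55.9 and 89.7 in WT, and Snhg12 had 39.8 and 38.7 in cKO, against 33.3 and 42.9 in WT. For both RNAs the cKO libraries lay between the WT libraries. In the SHERRY2 hair germ libraries Snhg1 had 31.5 and 75.9 normalized counts in cKO, against 27.4 and 17.4 in WT (log2 1.13 ± 0.61, limma adjusted p = 0.970). Both cKO values lay above both WT values, as for 16.4% of all genes on this scale. Snhg12 had 27.1 and 77.6 in cKO, against 27.4 and 7.91 in WT, with a narrow overlap (log2 1.56 ± 0.61, limma adjusted p = 0.970), and its value in WT mouse 2 is at the level of silent genes, so this is not read as a difference. By SMART-seq both had lower means under the label cKO. Snhg1 had 28.4 and 24.4 TMM-scaled CPM under that label, against 31.6 and 36.9 under WT, both cKO below both WT as for 12.5% of all genes there (log2 -0.38 ± 0.23, edgeR adjusted p = 1). Snhg12 had 24.2 and 17.5 under cKO, against 37.8 and 22.5 under WT, with overlap.

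Snhg9 came closest of the 10 to a call, in the SHERRY2 hair germ, on few reads. It had 12 and 27 reads in cKO, against 0 and 1 in WT, or 8.80 and 22.05 normalized counts in cKO, against 0 and 1.58 in WT. Both cKO libraries lay above both WT libraries, as for 16.4% of all genes on this scale and 9.13% in plain CPM. limma gave a log2 fold change of 3.23 ± 0.67 on the log2(normalized count + 1) scale (adjusted p = 0.0658), and edgeR on the whole reads gave 4.12 ± 1.27 (adjusted p = 0.194). The call depended on the setting. It passed with a pseudocount of 5 (adjusted p = 0.0240), with the replicate block (0.0341) and without WT mouse 2, the shallowest library (1.6e-05). The adjusted p was 0.912 with a pseudocount of 0.1, 0.922 without the filter on the mean, and 1 by DESeq2 and without cKO mouse 2. Snhg9 has only 214 exonic bases, and Rps2, a ribosomal protein gene with many reads, overlaps it on the opposite strand. Per 1000 reads of Rps2, Snhg9 had 4.35 and 4.33 reads in cKO SHERRY2 hair germ, against 0 and 1.79 in WT. In the bulge it had 0 and 2 reads in cKO, against 0 and 5 in WT, and by SMART-seq 4 and 4 under the label cKO, against 4 and 6 under WT. These counts were too low to read a difference, although both sets of libraries were deeper than those of SHERRY2 hair germ. By SMART-seq Snhg9 stood at 0.297 and 0.444 CPM under the label cKO, against 0.277 and 0.519 under WT. In SHERRY2 hair germ it stood at 7.86 and 11.7 CPM in cKO, against 0 and 2.05 in WT. The higher SHERRY2 level was thus not seen in the SMART-seq hair germ, and the cause was not tested.

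The medians of the hosts lay on different sides of 0 in the 3 datasets, each on the side of the ribosomal protein genes. In SHERRY2 hair germ other lists lay above 0 as well, with medians of 0.57 for nuclear speckle proteins, 0.69 for decay factors and 0.81 for p53 targets. Among the other snoRNA hosts, counted by gene ID, 0 rose and 0 fell in any dataset, and 3 in the bulge, 7 by SHERRY2 and 1 by SMART-seq had an unadjusted p under 0.05, where 18.9, 4.62 and 1.02% of all genes did. DESeq2 called 2 of them lower in the bulge. Their median log2 fold change was -0.21 in the bulge (5 positive and 12 negative of 17), 1.27 in SHERRY2 hair germ (13 and 2 of 15) and -0.16 by SMART-seq (5 and 10 of 15). The medians of all genes tested were -0.01, 0.06 and -0.02 in the same order. On leaving out 1 library the SHERRY2 median of these hosts ran from 0.63 to 1.88. The host with the lowest p in the bulge was Snhg8, with 29.7 and 25.9 TMM-scaled CPM in cKO, against 43.4 and 58.9 in WT (log2 -0.88 ± 0.20, edgeR adjusted p = 0.0627). Next came Epb41l4aos, with 9.57 and 9.17 in cKO, against 15.7 and 22.4 in WT (log2 -1.02 ± 0.26, adjusted p = 0.0820). Among SHERRY2 libraries the lowest p belonged to Snhg18 (log2 1.69) and Snhg5 (log2 1.48), and by SMART-seq to Snhg10 (log2 1.70) and Snhg15 (log2 -0.51), all with adjusted p of 0.970 or above.

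Of 87 ribosomal protein genes tested in the bulge, 0 rose and 10 fell, where 1.6% of all genes fell, with a median log2 fold change of -0.76 and all 87 negative. Among those that fell were Rps21, Rps27, Rps27rt, Rps29, Rpl23a, Rpl26, Rpl34, Rpl35a and Rpl37, with log2 fold changes of -0.78 to -1.26. Rps27 and Rps27rt are near-identical copies, so the split of their reads is uncertain. The count depended on the setting, with 74 of 90 called lower by DESeq2, 61 of 90 without the filter, 49 of 88 without WT mouse 1 and 4 of 87 with total counts only. Without WT bulge mouse 2, 0 of 87 fell, and the median of the other hosts was 0.28 instead of -0.21. Among SHERRY2 libraries 0 of 90 ribosomal protein genes passed, with 86 positive and a median of 1.02 (0.28 without WT mouse 2 or without cKO mouse 2), and by SMART-seq 0 of 88 passed, with 85 negative and a median of -0.16. Without the library labelled cKO mouse 1, the SMART-seq median of the other hosts was 0.04. Ribosomal protein genes took 4.91 and 5.23% of the reads in cKO bulge, against 6.51 and 8.11% in WT. They took 7.19 and 11.7% in cKO SHERRY2 hair germ, against 7.58 and 5.31% in WT. The other hosts together had 314 and 309 CPM in cKO bulge, against 247 and 363 in WT, and 496 and 562 CPM in cKO SHERRY2 hair germ, against 322 and 364 in WT. The libraries ranked differently by these sums and by the ribosomal shares. The highest sum and the highest share were in the same library, WT mouse 2 in the bulge and cKO mouse 2 by SHERRY2. Of 10 factors of nonsense-mediated decay, 0 rose and 0 fell in any dataset, with 1, Upf3b, at an unadjusted p under 0.05 in the bulge, where 18.9% of genes were (log2 0.45, edgeR adjusted p = 0.237).

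**Figure D3:**
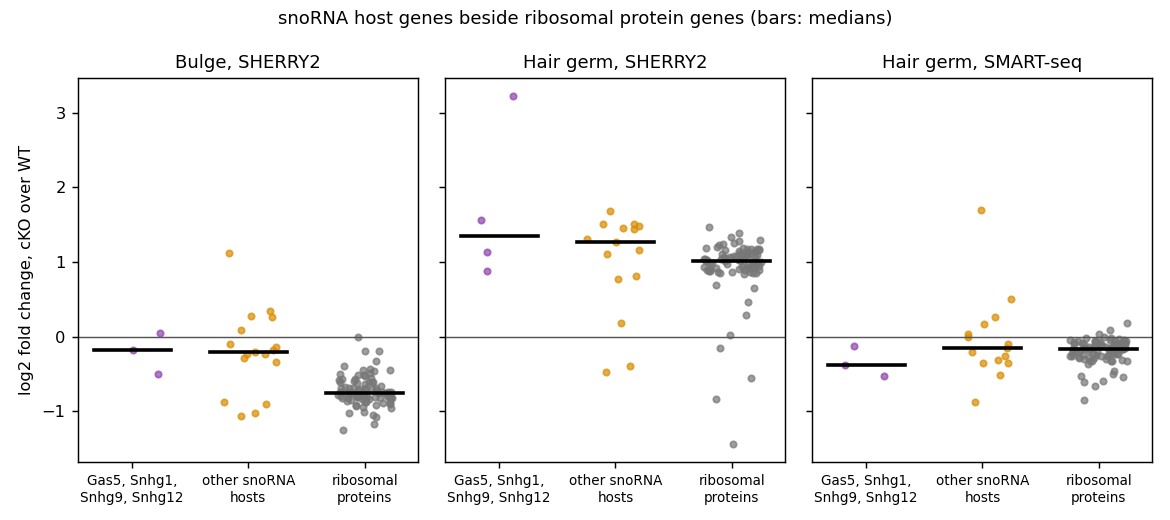
log2 fold changes of labelled cKO over labelled WT for the snoRNA hosts Gas5, Snhg1, Snhg9 and Snhg12, for the other snoRNA hosts and for ribosomal protein genes, with 1 point per tested gene and bars at the medians. All 3 groups have medians above 0 in SHERRY2 hair germ (1.35, 1.27 and 1.02) and below 0 in the other 2 datasets.

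The imprinted H19 was higher in cKO bulge on few reads, without passing. It had 29 and 47 reads in cKO, against 11 and 8 in WT, or 1.79 and 2.23 TMM-scaled CPM in cKO, against 0.562 and 0.568 in WT. Both cKO libraries lay above both WT libraries, as for 24.7% of all genes (log2 1.82 ± 0.63, edgeR adjusted p = 0.168). By SMART-seq H19 had 9 and 12 reads under the label cKO, against 6 and 27 under WT, with overlap. Meg3 had 0 and 1 read in cKO SHERRY2 hair germ and none in WT, and by SMART-seq 1 and 1 under the label cKO and none under WT. H19 is also the host of miR-675, and Meg3 lies with miR-770. The arms of the H19 miRNA are shown with the seed (bases 2 to 8) in capitals, since they name the product that the host reads cannot count.
mmu-miR-675-5p: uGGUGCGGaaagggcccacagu
mmu-miR-675-3p: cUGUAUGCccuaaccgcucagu
The arms have different seeds and lie at chr7:142577112-142577133 and chr7:142577078-142577099 on the minus strand of GRCm38.p6 in RefSeq. Across the 10 genes, 37 small genes of up to 200 bases lie inside on the same strand, and only 1 of them, Snora78 in Snhg9, had reads in the bulge (2 and 0 in cKO, 2 and 4 in WT). The processed snoRNAs and miRNAs were therefore not measured by these counts.

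Of 15 imprinted genes tested in the bulge, where 1.44% of all genes rose and 1.6% fell, 1 rose and 0 fell. It was Peg3, a zinc finger gene expressed from the paternal chromosome, with 21.0 and 14.2 TMM-scaled CPM in cKO, against 6.59 and 3.83 in WT (log2 1.74 ± 0.35, edgeR adjusted p = 0.0448). The call was lost without WT mouse 2 (adjusted p = 0.166). The neighbours of H19 were Mrpl23, with 27.1 and 27.8 TMM-scaled CPM in cKO, against 36.6 and 34.9 in WT (log2 -0.38, adjusted p = 0.258), and Igf2, with 2 reads in each cKO library and none in WT. Beside Meg3, Dlk1 had 1.73 and 0.712 TMM-scaled CPM in cKO, against 0.919 and 0.781 in WT (log2 0.50, adjusted p = 0.769), and Rtl1 had no read. Mirg, a miRNA host RNA of the Meg3 locus, had no read in the bulge.

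Trp53cor1 had reads in the bulge in cKO mice alone, next to a gene that rose. It had 9 and 5 reads in cKO, against 0 and 0 in WT. As a share of reads, the 14 cKO reads stood at 4.77 times the limit of 3 reads that a count of 0 allows over both WT libraries. The counting error of the cKO reads and the spread between mice are not in this ratio, so it is no lower bound. The gene was too low for the filter of the main test, and edgeR without that filter gave an adjusted p of 0.300. The bulge table places Trp53cor1 at chromosome 17, 29276404 to 29298153, minus strand, 11797 bases from Cdkn1a. Cdkn1a rose in the bulge, with 492 and 532 TMM-scaled CPM in cKO, against 271 and 223 in WT (log2 1.05 ± 0.17, edgeR adjusted p = 0.0249). Without WT mouse 2 the adjusted p was 0.0772. The neighbour on the other side, Srsf3, a splicing factor 14057 bases away, had 359 and 400 in cKO, against 396 and 477 in WT (log2 -0.20, adjusted p = 0.592). By SMART-seq Trp53cor1 had 2 and 0 reads under the label cKO, against 2 and 0 under WT.

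Of 19 p53 targets tested in the bulge, 9 rose and 0 fell, where 1.44% of all genes tested rose. Beside Cdkn1a they were Aen and Zmat3, a nuclease and an RNA-binding protein, Polk, a DNA polymerase for damaged templates, and the death receptors Tnfrsf10b and Eda2r. The others were Ccng1, Sesn2 and Mdm2, the ubiquitin ligase of p53 itself. Their log2 fold changes ran from 0.77 (Mdm2) to 2.26 (Aen), and the median of the 19 was 0.77, against -0.01 over all genes. DESeq2 called 10 of 20 targets higher and 1 lower. On leaving out 1 library the median ran from 0.62 to 0.91. Summed over the 20 targets, the plain level was lower in cKO bulge, at 6295 and 5703 CPM, against 7640 and 6825 CPM in WT. In hair germ, 0 of 20 p53 targets passed by SHERRY2 (median 0.81) and 0 of 19 by SMART-seq (median -0.13).

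Pvt1 stood higher in cKO bulge without passing, beside a Myc gene that fell. Pvt1 had 123 and 106 reads in cKO, against 52 and 49 in WT, or 7.60 and 5.03 TMM-scaled CPM in cKO, against 2.65 and 3.48 in WT. Both cKO libraries lay above both WT libraries, as for 24.7% of all genes tested there (log2 1.04 ± 0.40, edgeR adjusted p = 0.213). Myc, 47594 bases from Pvt1 in the bulge table, had 85.4 and 81.0 TMM-scaled CPM in cKO, against 276 and 159 in WT (log2 -1.39 ± 0.25, edgeR adjusted p = 0.0323). Per 100 reads of Myc there were 8.89 and 6.22 reads of Pvt1 in cKO bulge, against 0.961 and 2.18 in WT. In mouse cells an isoform of Pvt1 that starts at a p53 site inside the gene has been described, and counts per gene do not separate isoforms. By SMART-seq Pvt1 had 14.2 and 24.98 TMM-scaled CPM under the label cKO, against 29.6 and 14.4 under WT, with overlap. Myc had 108 and 107 there under cKO, against 172 and 73.1 under WT (log2 -0.19, adjusted p = 1).

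**Figure D4:**
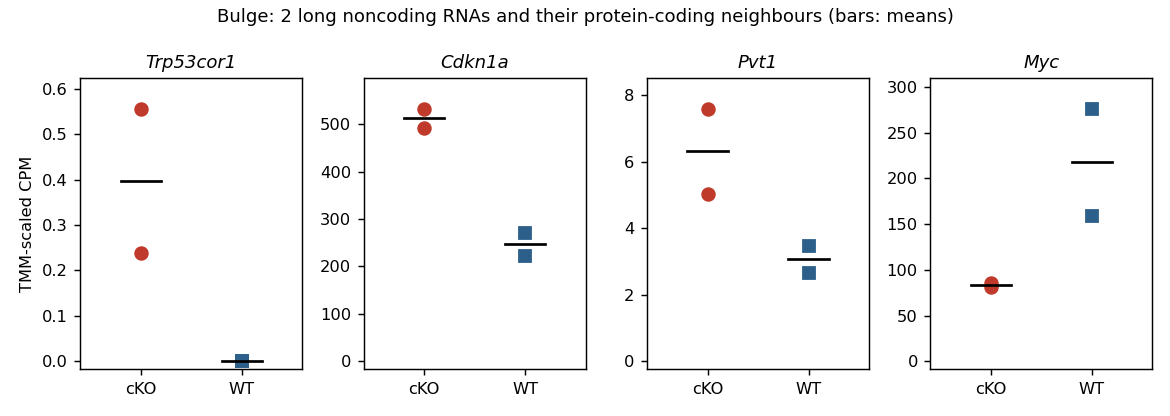
TMM-scaled CPM in the bulge of Trp53cor1 and its neighbour Cdkn1a, and of Pvt1 and its neighbour Myc, with cKO circles left of WT squares, 1 point per mouse and bars at the means; each panel has its own axis from 0. The groups do not overlap in any of the 4 panels, as for 50.9% of all genes tested in the bulge. Cdkn1a averaged 512 in cKO and 247 in WT, and Myc 83.2 in cKO and 218 in WT.

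The other neighbours of the 10 did not pass in any dataset. Frmd8, beside Neat1, had a log2 fold change of -0.19 in the bulge. Slc3a2, the heavy chain of amino acid transporters, begins 68 bases from Snhg1 and had 134 and 132 TMM-scaled CPM in cKO bulge, against 196 and 188 in WT (log2 -0.53 ± 0.14, edgeR adjusted p = 0.0955). Wdr74 on the other side of Snhg1 had a log2 fold change of -0.06. Ndufb10 beside Snhg9 had -0.57 (adjusted p = 0.129), Trnau1ap beside Snhg12 -0.36, Rps2 -0.33, and Gsdmc, the far neighbour of Pvt1, 1.62 (adjusted p = 0.147).

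In all, 0 of the 7 members tested in the bulge passed, where 3.04% of 15672 genes did, and 3 (Gas5, H19 and Pvt1) had an unadjusted p under 0.05, as did 18.9% of genes. For SHERRY2 hair germ 0 of 9 passed, where 0.0077% of 38953 genes did, and 2 (Snhg9 and Snhg12) had an unadjusted p under 0.05, as did 4.62% of genes. edgeR on the whole reads also called 0 members, where it called 0.377% of 16707 genes, with the same 2 members among the 4.93% of genes at an unadjusted p under 0.05. By SMART-seq 0 of 7 passed, where 0% of 17547 genes did. There 179 genes, 1.02%, had an unadjusted p under 0.05, none of them a member, and DESeq2 also called 0 genes. Groups did not overlap for 3 of 7 members in the bulge (H19 and Pvt1 above, Gas5 below), where 50.9% of genes did not. In plain CPM the same held for these 3 members and for 54.4% of genes, 38.9% with both cKO above both WT and 15.5% below. They did not overlap for 1 of 7 by SMART-seq, where 24.3% of genes did not (23.9% in plain CPM), and for 3 of 9 in SHERRY2 hair germ, where 32.8% did not. The third there, H19, is among those at the level of silent genes. In plain CPM 5 of 9 members had both cKO above both WT in SHERRY2 hair germ (Neat1, Gas5, Snhg1, Snhg9 and Snhg12), against 9.13% of all genes. The groups of 30.5% of genes did not overlap on that scale, and 21.4% had both cKO below both WT. These shares count genes at the level of silent genes too, and receptor genes stood highest in WT mouse 2. On the scale of the test 86 ribosomal protein genes were positive and 4 negative, 10 and 0 paraspeckle proteins, and 11 and 14 other long noncoding RNAs. These signs are another measure than non-overlap, whose share among expressed genes alone was not counted. Whether the 5 members stand apart from other expressed genes was not tested, and they are not read so.

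No member passed the test of the difference in genotype effect between bulge and hair germ. In joint edgeR fits 0 of 9 members passed against SHERRY2 hair germ, where 0.119% of 26135 genes did, and 0 of 7 against SMART-seq, where 0.0413% of 19371 genes did. At an unadjusted p under 0.05 there were 3 members (Snhg9, H19 and Trp53cor1) and 7.47% of genes against SHERRY2, and 0 members and 6.66% of genes against SMART-seq. These 3 are not read as differences between the tissues, since H19 and Trp53cor1 are at the level of silent genes in SHERRY2, and Snhg9 and Trp53cor1 were below the bulge filter. The bulge effect minus the SHERRY2 hair germ effect was -0.95 ± 0.53 for Gas5 (adjusted p = 0.733), -0.996 ± 0.50 for Snhg1 (adjusted p = 0.688) and -1.04 ± 0.54 for Snhg12 (adjusted p = 0.703), on the log2 scale. Against SMART-seq it was 1.22 ± 0.63 for Pvt1 (adjusted p = 0.762) and -0.37 ± 0.25 for Gas5 (adjusted p = 0.811).

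**Figure D5:**
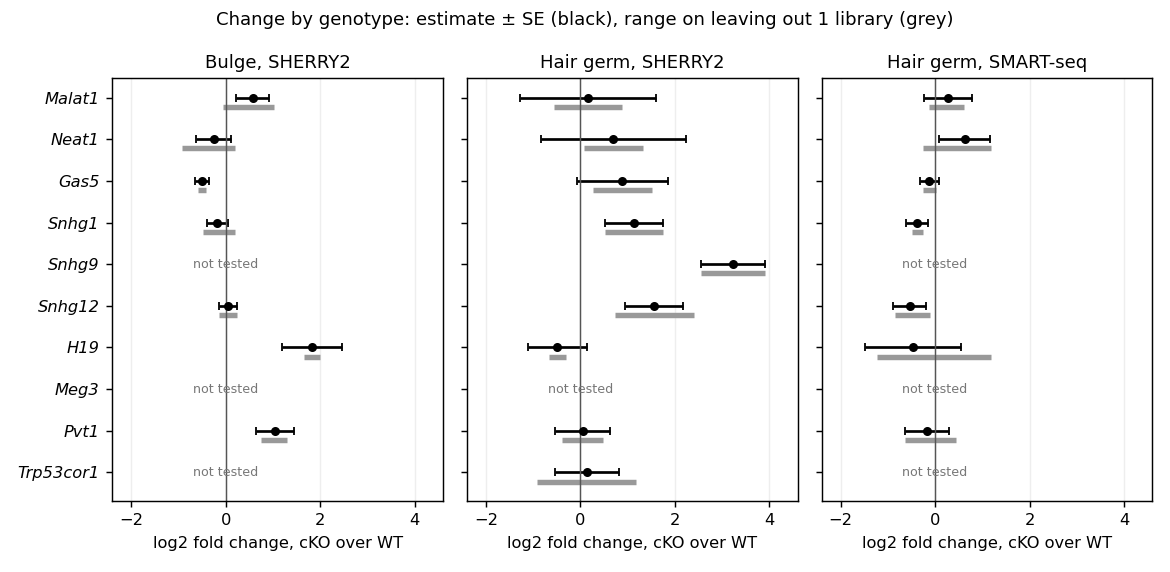
log2 fold change of labelled cKO over labelled WT for each RNA and dataset (black points with SE bars) and the range of the same value when 1 library is left out (grey bars); RNAs below the filter are marked as not tested. Gas5 keeps its sign in the bulge and in SHERRY2 hair germ, with opposite signs in the 2, while the ranges of Malat1 reach both sides of 0 in all 3 datasets.

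Of 19 other long noncoding RNAs tested in the bulge, where 1.44% of all genes rose and 1.6% fell, 0 rose and 1 fell. Mir17hg, the host of the miR-17 cluster, had 6.98 and 4.56 TMM-scaled CPM in cKO, against 17.3 and 21.7 in WT (log2 -1.76 ± 0.30, edgeR adjusted p = 0.0271). That call was lost without WT mouse 2 (adjusted p = 0.125). Tug1, Norad and Firre, which are widely expressed nuclear or cytoplasmic RNAs, had log2 fold changes of 0.08, -0.02 and 0.07. They were chosen as examples after their values were seen. In hair germ 0 of 25 passed by SHERRY2 and 0 of 19 by SMART-seq, where the lowest p belonged to Tsix and Xist and to Firre and Airn. In SHERRY2 hair germ Xist had 21.0 CPM in cKO mouse 1, the library with Y-linked reads at 107 CPM. It had 166 CPM in cKO mouse 2, against 311 and 215 in WT. The part of sex in these values was not tested.

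Over the 12 libraries, with each dataset centred on its own mean, the members followed different genes. Libraries of a dataset share the method but not the depth, which ran from 488648 to 2317407 reads in SHERRY2 hair germ. The correlations are among 9980 genes with a mean of at least 5 CPM in each dataset, and are given as descriptions. Malat1 was most like Gm42892 (Pearson r 0.85), Rnf152 (0.82) and Leng8 (0.82), and Neat1 most like Lncppara (0.86), Ube2g2 (0.86) and Aig1 (0.85). Gas5 was most like Ndufs4 (0.93), Chmp3 (0.92) and Tomm7 (0.92). Snhg1 was most like Snrpd3 (0.97), Sec61b (0.92) and Chchd5 (0.92), and Snhg12 most like Npm3 (0.96), Ndufa11 (0.96) and Cyb5r3 (0.95). Malat1 and Neat1 had an r of 0.62 with each other, Snhg1 and Snhg12 of 0.68, and Gas5 and Snhg12 of 0.67. Trp53cor1 was below the minimum.

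Immune cell markers were lower in cKO bulge, while the sums of melanocyte, dermal, and endothelial and muscle markers overlapped between genotypes. The sum of the 10 hair follicle stem cell markers, given above, was lower in both cKO libraries than in both WT libraries in plain CPM. Of these 10 markers, 0 rose and 0 fell in the bulge. Of 11 immune cell markers tested, 0 rose and 4 fell, where 1.6% of all genes fell. The 4 were Cd74, H2-Aa, H2-Ab1 and Cd3g, genes of antigen presentation and of the T cell receptor complex, with log2 fold changes of -1.73 to -2.60. There were 7 calls by DESeq2, 8 without cKO mouse 1, 1 without WT mouse 1 and 2 without WT mouse 2, and Cd3g was also lost with the replicate block (adjusted p = 0.0566). The 12 markers together had 139 and 90.7 CPM in cKO bulge, against 305 and 251 CPM in WT. Melanocyte markers summed to 55.8 and 40.0 CPM in cKO bulge, against 44.6 and 51.9 in WT, and dermal markers to 24.9 and 13.2 in cKO, against 18.8 and 10.4 in WT. Endothelial and muscle markers summed to 5.96 and 11.7 CPM in cKO bulge, against 13.9 and 4.91 in WT. By SMART-seq immune markers summed to 47.4 and 157 CPM under the label cKO, against 48.1 and 29.9 under WT, and melanocyte markers to 77.5 and 265 under cKO, against 151 and 169 under WT. In SHERRY2 hair germ the sums were 600 and 311 CPM in cKO, against 432 and 845 in WT, for immune markers, and 176 and 45.3 in cKO, against 62.8 and 100.3 in WT, for melanocyte markers. The silent receptor genes there stood at 1.34 and 0.595 CPM per kilobase in cKO, against 0.905 and 2.18 in WT. The immune sums had the same order of libraries as this background. The SHERRY2 sums are therefore not read as a content of such cells. The part of such cells in the values of the 10 RNAs was not tested.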

How the data were processed

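Of 28 samples, the 12 RNA-seq libraries were used and the 16 m6A libraries were not analysed here. The authors deposited raw read counts and FPKM with exonic sizes for the bulge, raw read counts for SMART-seq hair germ, and for SHERRY2 hair germ a normalized signal, which its values show to be read counts divided by size factors. Whole reads were recovered from the last table for 100% of values within 0.01 reads. Per the submitters' processing notes, the tools included STAR, Trim Galore, DESeq2 and featureCounts with build GRCm38, and for the SMART-seq batch fastp, HISAT2 and GRCm39 too. Versions, annotation and strand were not stated there.

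Counts were tested with the edgeR 4.0.16 quasi-likelihood test in R 4.3.3 (TMM, filterByExpr), two-sided, Benjamini-Hochberg adjusted over all genes at 0.05. The normalized SHERRY2 values were tested with limma 3.58.1 as log2(value + 1), leaving out genes whose mean was under 1; this scale understates changes of low genes. Differences between datasets used edgeR fits with 1 spread per gene for both datasets. Bulge and SHERRY2 were joined by symbol, and bulge and SMART-seq by gene ID. DESeq2 1.42.0, total-count scaling, no filter, other pseudocounts, left-out libraries and the replicate block were alternatives. The steps were tested on simulated data. The median log2 fold change of all bulge genes was 0.16 with total counts only and -0.01 with TMM.

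The members and lists were chosen with earlier results of these data known. All members were named, and of other lists the genes past 0.05, at most 10 by size, or else the 2 with the lowest p; a few genes that this rule names are not reported here. Neighbours are the nearest protein-coding genes in the bulge table, which names no build, so its positions are given as there and not joined to RefSeq. Ribosomal protein genes were taken by symbol, without kinases such as Rps6ka1 that share the prefix. Snhg4 has 2 gene IDs, and counts are over IDs. RefSeq promoter entries (GRCm38.p6) matched 6 of 10 members. The limit of 3 reads for a count of 0 covers the counting error of that count only.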

Additional observations from a re-analysis of the deposited data

How the results depend on the processing

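With 2 mice per group, single libraries decided many values, and low read counts limited Snhg9, H19, Meg3, Pvt1 and Trp53cor1. Of the bulge, 476 genes were called in the main test, 1191 by DESeq2, 809 with total counts only and 1549 without the filter. The share of calls that were higher in cKO was 47.3% with TMM and 72.9% with total counts only. Leaving out 1 library gave 218 to 1601 bulge calls and 0 to 1 members called (Malat1, without cKO mouse 2). For SHERRY2 hair germ 3 genes were called. There were 0 by DESeq2 on recovered reads, 63 by edgeR on recovered reads (17 higher and 46 lower), 0 without the filter on the mean, 0 with a pseudocount of 0.1, 19 with a pseudocount of 5, and 0 to 105 on leaving out 1 library. Members called there were 1 with a pseudocount of 5 and 0 to 1 on leaving out 1 library, in both cases Snhg9. For SMART-seq 0 genes were called, and 30 without the filter, none of them a member. The joint fits called 0 members under each alternative.

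Mouse numbers do not pair mice in the labels. Deviations of same-numbered libraries correlated by -0.0720 in the bulge, 0.230 by SMART-seq and -0.464 in SHERRY2. With the replicate block, 506 bulge genes, 5 SHERRY2 genes and 0 SMART-seq genes were called, and 1 member, Snhg9 in SHERRY2 (adjusted p = 0.0341).

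edgeR on recovered reads turned the SHERRY2 signs of Malat1 (-0.21) and Pvt1 (-0.28). The cause was not tested. On leaving out 1 library the log2 fold changes ran, in the bulge, from -0.0568 to 1.01 for Malat1, -0.92 to 0.20 for Neat1, -0.49 to 0.19 for Snhg1 and -0.13 to 0.23 for Snhg12. In SHERRY2 they ran from -0.55 to 0.88 for Malat1, -0.38 to 0.48 for Pvt1 and -0.91 to 1.19 for Trp53cor1. By SMART-seq they ran from -0.13 to 0.61 for Malat1, -0.26 to 1.19 for Neat1, -0.25 to 0.0282 for Gas5, -1.23 to 1.19 for H19 and -0.64 to 0.43 for Pvt1. Of 408 log2 fold changes recomputed, 347 kept their sign and side of the threshold. Levels without mitochondrial genes were not run for SHERRY2, whose table lists none, and 35 of 40 others moved by less than the spread.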
